A study of Mus musculus with 12 samples.

Results

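The IL-6 family cytokine and JAK/STAT3 genes were followed here as 10 genes picked by name from the 54532 genes of each count table: the ligands *Il6* and *Lif*, the receptor chains *Il6st*, *Lifr*, *Osmr* and *Cntfr*, the kinases *Jak1* and *Jak2*, the transcription factor *Stat3* and the feedback inhibitor *Socs3*. All 10 had an entry in the tables. RNAseq had been performed on brainstem progenitors from Nestin TVA, p53 floxed pups of C57BL/6 background, aged P3-P5, kept in serum-free medium with EGF and FGF2 and, per the methods of the study, grown as neurospheres. The cells had been infected with avian RCAS vectors for human ACVR1 WT, for ACVR1 WT and H3.1K27M, for ACVR1 R206H, or for ACVR1 R206H and H3.1K27M, with 3 samples in each of the 4 groups. The Tv-a receptor that these vectors need is driven by the nestin promoter, so that nestin-expressing cells are the ones infected. No vector for Cre is listed, and the groups without H3.1K27M received no histone vector in its place, so that the number of vectors goes with the H3.1K27M comparison. The study describes its in vitro samples as lines from independent litters, but the labels tie no sample to a litter, culture or sequencing run, so that a batch and a group cannot be told apart.

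ACVR1 is a type I receptor for bone morphogenetic proteins, and R206H is an activating change within it that is known from fibrodysplasia ossificans progressiva and from diffuse midline glioma. Cytokines of the IL-6 family share the signalling chain gp130, the product of *Il6st*, which pairs with the LIF receptor (*Lifr*) or the oncostatin M receptor (*Osmr*), while CNTF binds first to the anchored chain made from *Cntfr*. Bound receptors bring JAK kinases together, these phosphorylate STAT3 on a tyrosine, and STAT3 then enters the nucleus and switches on genes that include *Socs3*, whose protein blocks the JAKs at gp130. In neural progenitors this route is known for turning cells towards astrocytes and for acting together with BMP signals on genes such as *Gfap*. The measurements here are RNA levels and say nothing of phosphorylation.

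The DNA just before the RefSeq start of a gene was read for *Socs3* and *Il6st*, because these had the largest rises with ACVR1 R206H among the genes that passed the test, and because one of these windows held both letter patterns that were searched while the other held neither. RefSeq on GRCm38.p6 gave 16 start windows of 250 bases for the 10 genes. The patterns were TTCNNNGAA, the palindrome that STAT proteins can bind, and GGCGCC, a GC-rich pattern of BMP-responsive SMAD sites. Each reads the same on both strands, and they do not overlap each other. Capitals mark the matches. The *Socs3* window lies at chr11:117969367-117969616 on the minus strand and the *Il6st* window at chr13:112463820-112464069 on the plus strand, both printed 5′ to 3′ along the gene. The RefSeq start of *Socs3* lies inside the longer GENCODE span of the gene given with its values, and 77 bases of its window fall in an annotated exon, with 0 in coding sequence or an annotated UTR.
Socs3: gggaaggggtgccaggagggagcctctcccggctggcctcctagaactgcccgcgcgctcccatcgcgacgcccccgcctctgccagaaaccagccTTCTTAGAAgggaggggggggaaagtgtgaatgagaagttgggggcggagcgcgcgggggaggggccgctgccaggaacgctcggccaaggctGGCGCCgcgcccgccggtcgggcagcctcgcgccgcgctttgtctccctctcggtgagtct
Il6st: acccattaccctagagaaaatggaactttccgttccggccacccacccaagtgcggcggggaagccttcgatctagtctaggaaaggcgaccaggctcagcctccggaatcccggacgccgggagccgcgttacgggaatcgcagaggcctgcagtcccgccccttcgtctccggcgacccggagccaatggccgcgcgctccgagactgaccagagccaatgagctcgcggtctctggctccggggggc

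In the *Socs3* window TTCTTAGAA ended 146 bases before the start and GGCGCC ended 56 bases before it. Of the 16 windows this was the one with TTCNNNGAA, a pattern held by 7.02% of the 32851 start windows of all genes. GGCGCC was found in windows of *Socs3*, *Lifr*, *Jak1* and *Cntfr*, and in 9.59% of all windows. A match is a description of letters, and the absence of one from the *Il6st* window covers these 250 bases.

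Each library held between 19315020 and 26456257 counts, with a median of 20994196. The 3 ACVR1 WT libraries stood apart from each other: the biological coefficient of variation, the relative spread between samples beyond counting noise, was 0.273 in that group and 0.0451 to 0.0594 in the other 3. The summed level of 6 astrocyte markers (*Gfap*, *Aqp4*, *S100b*, *Aldh1l1*, *Slc1a3* and *Slc1a2*) was 3535 CPM in ACVR1 WT replicate 1, 8172 in replicate 2 and 12170 in replicate 3, against 4118 to 6380 CPM in the other 9 samples. CPM is the normalised read count, relative to library sizes scaled by the trimmed mean of M values (TMM). All 8 neural progenitor markers (*Nes*, *Sox2*, *Vim*, *Fabp7*, *Msi1*, *Sox9*, *Pax6* and *Hes5*) had a mean of at least 1 CPM in every group, and their sum ran from 4189 to 5894 CPM. Endothelial markers summed to at most 5.50 CPM and microglial markers to at most 23.3 CPM. Reads given to mouse *Acvr1* (ENSMUSG00000026836), where reads of the human vector may also fall, came to 46.4 to 53.5 CPM with ACVR1 WT, 81.9 to 113.6 with ACVR1 R206H, 162.1 to 364.4 with ACVR1 WT plus H3.1K27M and 561.3 to 1057 with both mutations, so that the reads given to this gene moved with both comparisons. Whether they came from the vector cannot be told apart in these counts, and their part in the results was not tested.

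Per kilobase of exon, *Stat3* had the highest level of the 10 genes and *Il6* was hardly detected. On the RPKM scale (CPM divided by the exon length in kilobases) the medians over the 12 samples were 44.3 for *Stat3*, 26.8 for *Jak2*, 25.2 for *Jak1*, 22.5 for *Cntfr*, 18.7 for *Il6st*, 13.7 for *Lifr*, 8.59 for *Socs3*, 2.46 for *Osmr* and 1.22 for *Lif*. The ranges of neighbours in this order overlapped, except that *Socs3* (6.01 to 15.8 RPKM) lay wholly above *Osmr* (1.62 to 2.72 RPKM) and *Lif* wholly above *Il6*. The signalling chain gp130 and its partner chain from *Lifr* were thus both present at levels several times that of *Osmr*. Mean RPKM of *Osmr* divided by that of *Il6st* within a sample was 0.103 ± 0.00844 with ACVR1 WT, 0.168 ± 0.0032 with ACVR1 WT and H3.1K27M, 0.123 ± 0.0105 with ACVR1 R206H and 0.139 ± 0.0103 with both (SD, n = 3 each).

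**Figure D1:**
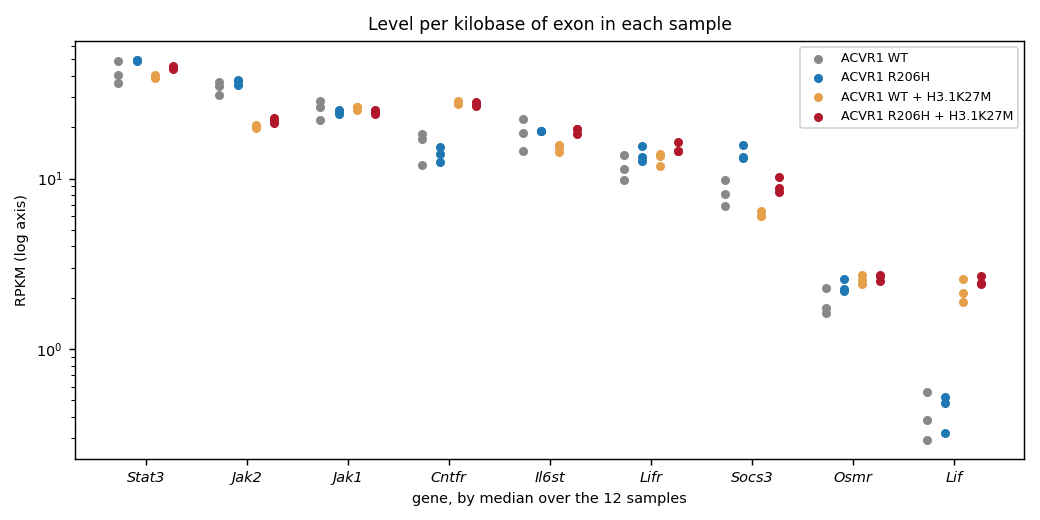
Level of 9 of the 10 genes in RPKM on a log axis, with genes ordered by their median over the 12 samples and 1 point per sample coloured by group; *Il6*, with 3 reads in all, is not drawn. *Stat3* sits highest with 36.6 to 49.8 RPKM, *Osmr* and *Lif* lie apart at the bottom, and *Lif* splits into a low cluster without H3.1K27M and a higher one with it.

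Among the ligands, *Il6* and *Lif* differed in whether they could be measured at all. *Il6* (ENSMUSG00000025746, chr5:30013114-30019981 of mm10, plus strand), which signals through its own receptor chain and gp130, had 3 reads in all over the 12 libraries, 1 in each of 3 libraries. At this depth a count of 0 allows up to 0.112 to 0.156 CPM, depending on the library and for counting error only, and *Il6* passed the filter on low counts in no comparison. The other 9 genes passed it in every comparison.

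*Lif* (ENSMUSG00000034394, chr11:4257557-4272514, plus strand) encodes leukaemia inhibitory factor, a ligand of the receptor pair made by *Lifr* and *Il6st*. Its level was 1.28, 1.66 and 2.44 CPM in the 3 samples with ACVR1 WT and 2.10, 2.28 and 1.40 CPM in those with ACVR1 R206H. With H3.1K27M it was 9.33, 8.18 and 11.1 CPM beside ACVR1 WT and 10.5, 10.6 and 11.7 CPM beside ACVR1 R206H. All 6 samples with H3.1K27M lay above all 6 without it, while the R206H and WT groups overlapped both without and with H3.1K27M. *Lif* was 5.36-fold higher with H3.1K27M than without it beside ACVR1 WT (log2 fold change 2.42, standard error 0.26, adjusted p = 0.00298) and 5.75-fold higher beside ACVR1 R206H (2.52, standard error 0.15, adjusted p = 6.83e-08), both from the quasi-likelihood test of edgeR, adjusted over all genes tested by the Benjamini-Hochberg method. By the same test R206H against WT gave 0.11 without H3.1K27M (95% interval -0.65 to 0.87, adjusted p = 0.959) and 0.20 with it (-0.04 to 0.44, adjusted p = 0.230).

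The shared signalling chain and the LIF receptor chain were raised with ACVR1 R206H where H3.1K27M was present. *Il6st* (ENSMUSG00000021756, chr13:112464070-112510086, plus strand) stood at 158.9, 170.2 and 175.6 CPM where H3.1K27M went with ACVR1 WT and at 201.7, 216.6 and 216.3 CPM with both mutations. Every sample with both mutations was above every sample with ACVR1 WT and H3.1K27M. The rise was 0.34 on the log2 scale (standard error 0.05, 1.26-fold, adjusted p = 0.000264 by edgeR's test). Without H3.1K27M the ACVR1 WT samples alone ran from 162.2 over 204.1 to 246.8 CPM and enclosed the R206H samples, which held within 210.2 to 210.6 CPM, and the log2 difference was 0.05 (95% interval -0.30 to 0.41). H3.1K27M against none gave -0.27 beside ACVR1 WT (adjusted p = 0.240) and 0.02 beside ACVR1 R206H (adjusted p = 0.716), neither past the threshold of 0.05.

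*Lifr* (ENSMUSG00000054263, chr15:7090614-7197489, plus strand) had 127.3, 146.7 and 149.3 CPM where H3.1K27M went with ACVR1 WT and 157.2, 177.7 and 157.4 CPM with both mutations, and the groups did not overlap. The log2 difference came to 0.22 (standard error 0.06, adjusted p = 0.0256). Without H3.1K27M its samples overlapped, at 148.5, 122.7 and 105.7 CPM with ACVR1 WT and 166.9, 136.3 and 144.5 CPM with ACVR1 R206H (log2 difference 0.26, adjusted p = 0.940). The call with H3.1K27M ended when ACVR1 WT and H3.1K27M replicate 1 or 2, or replicate 2 of the group with both mutations, was left out, with an adjusted p of up to 0.0846 by edgeR's test.

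The remaining receptor chains passed the test in comparisons by H3.1K27M and in neither comparison by R206H. *Cntfr* (ENSMUSG00000028444, chr4:41657498-41697089, minus strand), the chain that binds CNTF and related ligands, was at 33.4, 47.3 and 50.7 CPM with ACVR1 WT and 34.6, 38.7 and 42.6 CPM with ACVR1 R206H. With H3.1K27M it was at 79.1, 77.1 and 76.7 CPM beside ACVR1 WT and 75.3, 78.1 and 74.6 CPM beside ACVR1 R206H. The 6 samples with H3.1K27M thus held within a narrow band above the 6 without it. The rise was 1.79-fold beside ACVR1 WT (log2 0.84, standard error 0.15, adjusted p = 0.0136) and 1.98-fold beside ACVR1 R206H (log2 0.99, standard error 0.07, adjusted p = 1.62e-07), both by edgeR's test. The first of these calls was lost when any of the 3 samples with ACVR1 WT and H3.1K27M was left out, with an adjusted p of up to 0.0642. R206H against WT differed by -0.17 without H3.1K27M (adjusted p = 0.940) and by -0.03 with it (95% interval -0.11 to 0.06), on the log2 scale.

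*Osmr* (ENSMUSG00000022146, chr15:6813577-6874969, minus strand), the receptor chain for oncostatin M, had 19.7, 21.0 and 27.5 CPM with ACVR1 WT, 27.2, 26.6 and 31.0 CPM with ACVR1 R206H, 29.0, 30.6 and 32.8 CPM with ACVR1 WT plus H3.1K27M and 32.9, 30.5 and 32.6 CPM with both. The ACVR1 WT samples were below all those with ACVR1 WT and H3.1K27M, but the 2 groups with R206H overlapped. H3.1K27M against none gave a log2 fold change of 0.45 beside ACVR1 WT (adjusted p = 0.0640) and 0.19 beside ACVR1 R206H (adjusted p = 0.0358) in edgeR. The tools disagreed on both: in DESeq2 the first was called (adjusted p = 0.0323) and the second was not (0.0747). Of the 12 alternatives the first was called in 4, among them those without ACVR1 WT replicate 1 or 3, and leaving out 1 sample gave it an adjusted p of 0.0153 to 0.196 by the test of edgeR. The second was lost in 7, among them those without ACVR1 R206H replicate 1 or 2, or without replicate 1 or 3 of both mutations (adjusted p up to 0.124 in these 4, by edgeR's test).

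Of the kinases, *Jak2* fell with H3.1K27M and *Jak1* did not pass the test in any comparison. *Jak2* (ENSMUSG00000024789, chr19:29251828-29313080, plus strand), a kinase used by gp130 and by many other cytokine receptors, was at 185.7, 176.5 and 155.2 CPM with ACVR1 WT and 189.4, 187.8 and 177.3 CPM with ACVR1 R206H. With H3.1K27M it was at 101.5, 103.7 and 99.4 CPM beside ACVR1 WT and 114.7, 111.3 and 106.5 CPM beside ACVR1 R206H. All 6 samples with H3.1K27M lay below the 6 others. *Jak2* fell by 0.75 on the log2 scale beside ACVR1 WT (standard error 0.08, adjusted p = 0.00293) and fell by 0.73 beside ACVR1 R206H (standard error 0.04, adjusted p = 7.90e-08), by edgeR's test. With H3.1K27M present it was 1.10-fold higher with R206H than with WT (log2 0.13, standard error 0.04, adjusted p = 0.0422), a call that DESeq2 did not make (adjusted p = 0.0953) and that leaving out any 1 of 5 of the 6 samples ended.

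*Jak1* (ENSMUSG00000028530, chr4:101152367-101265282, minus strand), the kinase that gp130 chiefly relies on, ran from 159.9 to 206.8 CPM over all 12 samples. Its 4 log2 differences lay between -0.08 and 0.04. The narrowest 95% interval was that of R206H against WT with H3.1K27M, from -0.16 to 0.00, and in it the 3 samples with both mutations (173.8, 182.7 and 176.4 CPM) lay below the 3 with ACVR1 WT plus H3.1K27M (183.7, 191.2 and 191.3 CPM). In RPKM the ratio of *Jak2* to *Jak1* within a sample was 1.36 ± 0.296 with ACVR1 WT and 1.49 ± 0.0738 with ACVR1 R206H, and 0.773 ± 0.0242 and 0.897 ± 0.0447 with H3.1K27M (SD, n = 3 each), so that *Jak2* stood above *Jak1* in every sample without H3.1K27M and below it in every sample with it. Exons of *Jak1* overlap those of *Raver2* on the other strand and exons of *Stat3* those of *Stat5a*, and the counting took no strand and left ambiguous reads out.

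*Stat3* (ENSMUSG00000004040, chr11:100885098-100939540, minus strand), the transcription factor at the end of the route, had 387.7, 378.4 and 368.3 CPM where H3.1K27M went with ACVR1 WT and 433.6, 416.6 and 427.8 CPM with both mutations. All 3 samples with both mutations were higher, by 0.18 on the log2 scale (standard error 0.04, 1.13-fold, adjusted p = 0.00457 by edgeR's test). Without H3.1K27M the R206H samples were within 463.9 to 474.6 CPM, whereas the ACVR1 WT samples spread over 466.5, 388.2 and 348.7 CPM and overlapped them (log2 difference 0.24, 95% interval -0.05 to 0.52, adjusted p = 0.940). Beside ACVR1 R206H, *Stat3* fell by 0.13 with H3.1K27M (adjusted p = 0.0139), a call that was lost in the fit over all 12 samples (adjusted p = 0.232 by edgeR's test). Beside ACVR1 WT the difference was -0.07 (adjusted p = 0.693).

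*Socs3* (ENSMUSG00000053113, chr11:117966079-117970047, minus strand), the feedback inhibitor that STAT3 induces, was the gene of the 9 tested with the largest difference between R206H and WT in both backgrounds. Without H3.1K27M it was at 28.4, 23.6 and 20.0 CPM with ACVR1 WT and at 38.8, 38.3 and 45.8 CPM with ACVR1 R206H. With H3.1K27M it was at 18.6, 17.4 and 17.5 CPM with ACVR1 WT and at 29.6, 24.2 and 25.5 CPM with ACVR1 R206H. In both backgrounds all 3 R206H samples were above all 3 WT samples, and the lowest 3 values of the 12 were those of ACVR1 WT with H3.1K27M. With H3.1K27M *Socs3* was 1.48-fold higher with R206H (log2 0.57, standard error 0.08, adjusted p = 0.000264), a call that edgeR kept under every alternative run. Without H3.1K27M it was 1.72-fold higher (log2 0.78, standard error 0.15, 95% interval 0.42 to 1.14), but the adjusted p was 0.940 in edgeR, where no gene passed, and 0.00923 in DESeq2. *Socs3* fell with H3.1K27M by 0.62 beside ACVR1 R206H (standard error 0.09, adjusted p = 7.96e-05), and beside ACVR1 WT it differed by -0.42 without passing the test (adjusted p = 0.0792 in edgeR and 0.0475 in DESeq2), although the groups did not overlap.

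**Figure D2:**
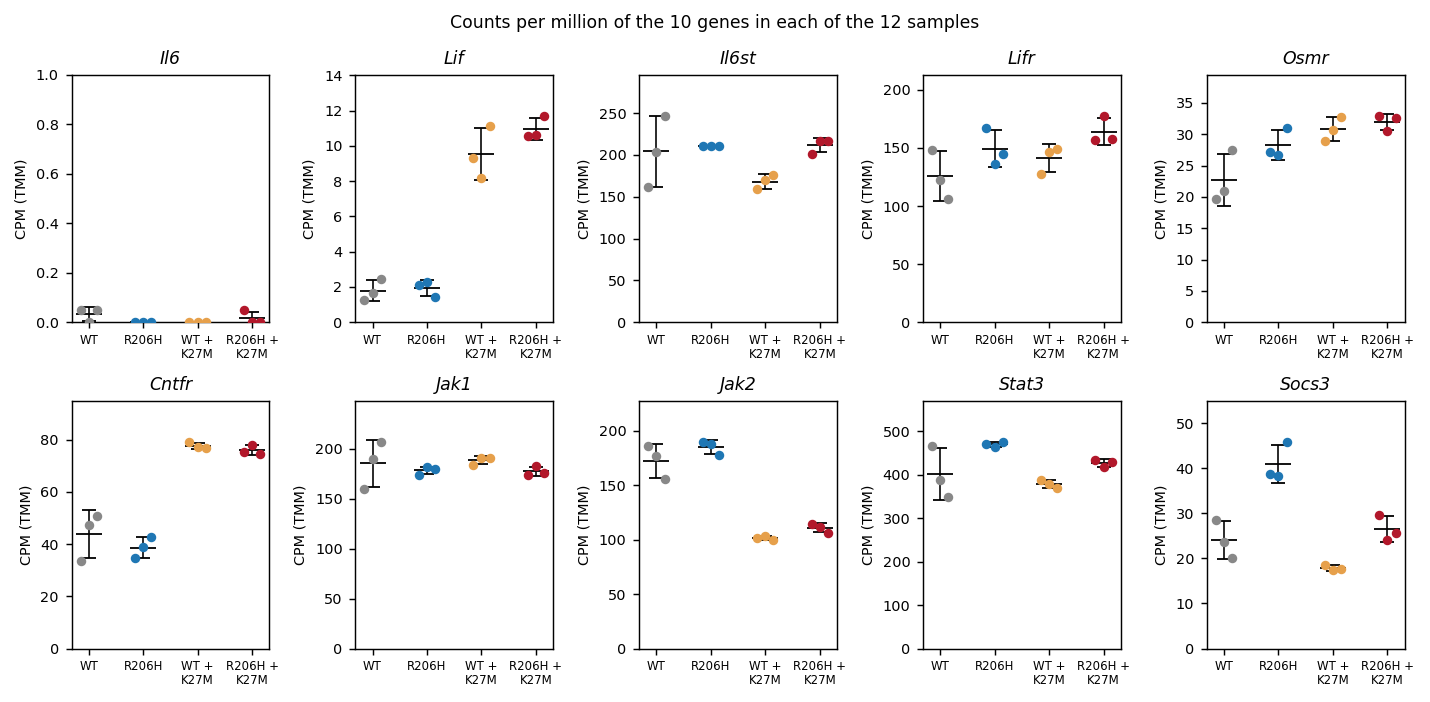
CPM (TMM-scaled) of each of the 10 genes in each sample, 1 panel per gene with axes from 0, points for samples and bars for mean ± SD of 3. *Lif* and *Cntfr* are higher and *Jak2* is lower in all 6 samples with H3.1K27M, *Socs3* is higher in the R206H group than in the WT group of each background (28.4, 23.6 and 20.0 against 38.8, 38.3 and 45.8 CPM without H3.1K27M), and the ACVR1 WT samples are spread widely for *Il6st*, *Stat3* and *Jak1*.

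Counted over the list, R206H against WT without H3.1K27M gave no call among the 9 genes tested, against a background of 0 of 15066 genes (0% called) in edgeR, 534 of which had an unadjusted p under 0.05 (3.54%), *Socs3* being the 1 of the 9 among them. DESeq2 called 26 genes (0.173%), and 1 of them was *Socs3*. *Socs3* alone of the 9 had groups that did not overlap upwards, as did 4.37% of all genes tested. The median log2 difference was 0.11 over the 9 genes and -0.01 over all. Without ACVR1 WT replicate 1, the sample with the lowest astrocyte marker sum, edgeR called 3485 genes (23.1%) and 4 of the 9: *Socs3* (log2 0.92, adjusted p = 0.00313), *Stat3* (0.36, 0.00988) and *Lifr* (0.40, 0.0261) as higher and *Cntfr* (-0.33, 0.0400) as lower with R206H. Without replicate 2 or replicate 3 it called none of the 9. Replicates 2 and 3 had astrocyte marker sums of 8172 and 12170 CPM, above those of the R206H samples (5560 to 6380 CPM). Replicate 1, at 3535 CPM, was below them. The part of these sums in the calls was not tested.

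With H3.1K27M present, R206H against WT gave 5 calls among the 9, all higher with R206H (*Il6st*, *Lifr*, *Jak2*, *Stat3* and *Socs3*), where the background was 20.3% of 15672 genes in either direction and 11.4% in that direction. The same 5 had groups that did not overlap upwards, as did 18.4% of all genes tested, and *Jak1* was the 1 gene whose groups did not overlap downwards, as did 18.4% of all genes. In the background 8.95% of genes were called lower, and DESeq2 called 4 of the 9 (all but *Jak2*) and 16.1% of genes. The median log2 difference was 0.18 over the 9 and 0.00 over all genes. The 4 genes with no call were *Lif*, *Osmr*, *Cntfr* and *Jak1*. In 1 fit over all 12 samples, which takes its spread from the ACVR1 WT group as well, 440 genes (2.85%) were called and *Socs3* alone of the 9 (adjusted p = 0.0401). Marker sums of neurons (38.2 to 42.2 against 50.2 to 52.1 CPM) and of fibroblasts and mural cells (13.8 to 16.4 against 24.3 to 30.3 CPM) were also higher in the samples with both mutations, and so, without overlap, were those of neural progenitors (4827 to 5275 against 5562 to 5894 CPM), ependymal cells (66.6 to 69.6 against 73.7 to 80.5 CPM) and endothelial cells (1.81 to 2.57 against 3.29 to 5.50 CPM). Within the neural progenitor list *Vim* was higher (1779 to 1897 against 2403 to 2760 CPM), *Nes* was lower without overlap (316.9 to 335.0 against 264.1 to 278.8 CPM) and *Fabp7* overlapped. The part of these was not tested. Leaving out 1 sample at a time, edgeR called 3 to 5 of the 9, always with *Il6st*, *Stat3* and *Socs3* among them.

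H3.1K27M against none gave 3 calls among the 9 beside ACVR1 WT (*Lif* and *Cntfr* higher, *Jak2* lower; background 23.0% of 15385 genes) and 6 beside ACVR1 R206H (*Lif*, *Cntfr* and *Osmr* higher, *Jak2*, *Stat3* and *Socs3* lower; background 56.5% of 15482 genes). By direction the background was 12.6% higher and 10.4% lower beside ACVR1 WT and 29.1% higher and 27.4% lower beside ACVR1 R206H. DESeq2 called 5 of the 9 (*Osmr* and *Socs3* added) and 29.4% of genes in the first comparison, and 5 of the 9 (without *Osmr*) and 50.0% in the second. Both shares of the 9 in edgeR were near the background, so that the counts say little of the list and the sizes of *Lif*, *Cntfr* and *Jak2* are what the comparison shows. Without ACVR1 WT replicate 1, 7 of the 9 and 52.6% of genes were called beside ACVR1 WT. Markers of other cells moved with H3.1K27M: those of the oligodendrocyte lineage summed to 3477 to 4222 CPM in the 6 samples with it and 2380 to 3294 without, and those of ependymal cells to 66.6 to 80.5 and 30.6 to 56.6 CPM, nearly all of it *Foxj1*, with *Pifo* and *Tmem212* near or at 0. Within the oligodendrocyte lineage list *Mog* went the other way, at 0.703 to 0.990 CPM with H3.1K27M and 1.90 to 2.59 without, as did *Pdgfra* beside ACVR1 R206H (118.0 to 153.7 against 168.7 to 219.2 CPM). Of the neural progenitor markers, *Hes5* (6.49 to 11.4 against 60.0 to 86.3 CPM) and *Pax6* (24.7 to 39.8 against 51.7 to 83.9 CPM) were lower in all 6 samples with H3.1K27M. So were *Sox2* (210.4 to 264.1 against 328 to 376.5 CPM) and *Sox9* (136.2 to 162 against 181.5 to 307.5 CPM). *Vim* was higher beside ACVR1 R206H (2403 to 2760 against 2072 to 2184 CPM), and *Nes*, *Fabp7* and *Msi1* overlapped. The sum of microglia and macrophage markers was 4.62 to 6.88 CPM in the 6 samples with H3.1K27M, below all 6 without it (7.49 to 23.3 CPM). In that list *P2ry12* went the other way beside ACVR1 R206H, at 1.58 to 2.505 CPM with H3.1K27M and 0.879 to 1.31 without. Beside ACVR1 WT *P2ry12* overlapped. The marker sum of fibroblasts and mural cells was 13.8 to 16.4 against 8.21 to 11.7 CPM beside ACVR1 WT and 24.3 to 30.3 against 12.3 to 14.7 CPM beside ACVR1 R206H. Beside ACVR1 R206H, where *Stat3* and *Socs3* were called lower, the astrocyte sum was lower with H3.1K27M without overlap (5116 to 5209 against 5560 to 6380 CPM). Its markers did not move together. *Gfap* (421.6 to 475.5 against 856.9 to 1132 CPM) and *Aqp4* (1329 to 1357 against 1934 to 2458 CPM) were lower. *Slc1a3* (1930 to 1963 against 1252 to 1298 CPM) and *S100b* (109.8 to 119.8 against 77.21 to 85.73 CPM) were higher without overlap. *Aldh1l1* and *Slc1a2* overlapped. In the same comparison the sums of neurons (50.2 to 52.1 against 39.2 to 44.5 CPM) and endothelial cells (3.29 to 5.50 against 1.34 to 1.85 CPM) were higher without overlap. The part of these in the results was not tested. These 2 comparisons have no sample in common, and side by side the log2 differences were 2.42 and 2.52 for *Lif*, 0.84 and 0.99 for *Cntfr* and -0.75 and -0.73 for *Jak2*.

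Whether the R206H difference itself depended on H3.1K27M was tested as the interaction over all 12 samples, and it was called for 0 of the 9 genes, against 11 of 15445 genes (0.0712%) in edgeR, 1183 at an unadjusted p under 0.05 (7.66%) and 96 in DESeq2 (0.622%), where it was called for 0 of the 9 too. None of the 9 had an unadjusted p under 0.05. *Il6st* had the largest estimate, an R206H effect larger by 0.29 with H3.1K27M (95% interval -0.07 to 0.65, adjusted p = 0.689). For *Socs3* the estimate was -0.20 (95% interval -0.60 to 0.19, adjusted p = 0.768). So the calls for *Il6st*, *Lifr*, *Jak2* and *Stat3* with H3.1K27M and the absence of a call without it are not shown to differ. Without ACVR1 WT replicate 1 the interaction was called for *Il6st* (0.44, adjusted p = 0.00445) and *Cntfr* (0.32, adjusted p = 0.0252), and for 4112 genes in all.

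**Figure D3:**
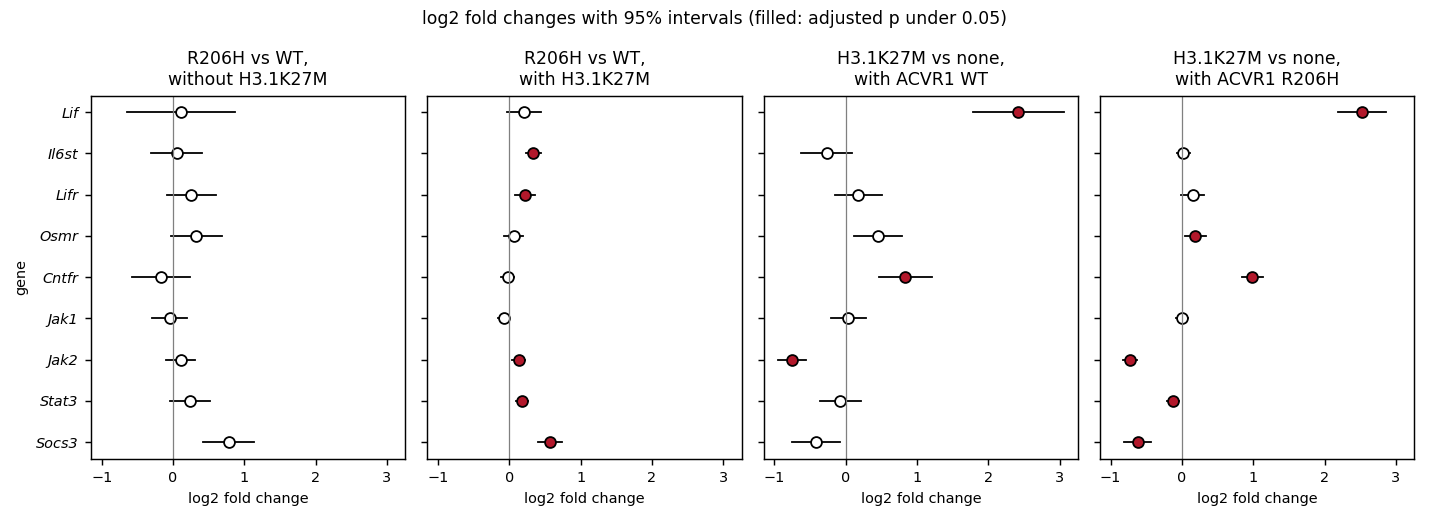
Log2 fold change of the 9 tested genes in the 4 comparisons, with 95% intervals as lines and filled points where edgeR's adjusted p was under 0.05. Intervals in the first and the third panels are wide because both hold the ACVR1 WT samples; *Socs3* is the point farthest to the right in both R206H panels (0.78 and 0.57), and *Lif* in both H3.1K27M panels (2.42 and 2.52).

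The other ligands and receptor chains of the family were read from fixed lists. Of 8 other ligands, 3 passed the filter, *Clcf1* and *Ctf1* among them. *Clcf1*, a ligand of the CNTF receptor, was 2.58, 1.57 and 3.33 CPM with ACVR1 WT plus H3.1K27M and 6.17, 5.93 and 6.95 CPM with both mutations, a rise of 1.34 on the log2 scale (adjusted p = 0.000393 by edgeR's test). Without H3.1K27M it was 2.13 to 3.42 CPM with ACVR1 WT and 4.24 to 5.23 CPM with ACVR1 R206H. That log2 difference was 0.70 and did not pass the test (adjusted p = 0.940 by edgeR's test). *Ctf1*, cardiotrophin 1, rose by 0.85 with H3.1K27M beside ACVR1 R206H, and so did *Clcf1*, by 0.43, a call that was lost without replicate 3 of both mutations and in the fit over all 12 samples.

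Among 4 other receptor chains, *Il11ra1*, the specific chain for IL-11, was higher with H3.1K27M in all samples, with 16.4 to 17.6 CPM against 34.7 to 39.2 CPM beside ACVR1 WT (log2 1.16) and 15.8 to 18.7 against 34.7 to 36.4 CPM beside ACVR1 R206H (log2 1.02). *Il27ra*, a chain for IL-27, rose with R206H where H3.1K27M was present (log2 1.06, 8 to 24 counts per sample, adjusted p = 0.0456 in edgeR, 0.137 in DESeq2). This call was lost in 8 of 12 alternatives, among them leaving out any of 5 of the 6 samples. With H3.1K27M beside ACVR1 R206H the log2 difference of *Il27ra* was 1.86 (adjusted p = 0.00214 in edgeR). The ACVR1 R206H samples held 3 to 6 counts and those with both mutations 16 to 24. *Il27ra* thus passed the filter on low counts only through the group where it was high. It was not tested there with at least 10 counts in every sample, in the fit over all 12 samples or without replicate 1 of both mutations. *Il6ra*, the specific chain for IL-6, stood between 1.47 and 2.89 CPM in all 12 samples and was called in no comparison.

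Of 8 other JAKs and STATs, 7 were tested and 4 rose with H3.1K27M beside ACVR1 WT and beside ACVR1 R206H, in both cases with *Jak3*, the kinase of the common gamma chain, *Stat5a*, and *Stat6*, which acts in IL-4 signalling. The share of all genes that was higher was 12.6% and 29.1%. Beside ACVR1 R206H *Tyk2*, the kinase of interferon and IL-12 type receptors, fell by 0.20 (adjusted p = 0.0114). *Jak3* was 8.86, 9.08 and 9.38 CPM with ACVR1 WT, 14.2, 13.4 and 11.3 with ACVR1 R206H, 19.7, 22.2 and 21.8 with ACVR1 WT plus H3.1K27M and 27.5, 28.8 and 29.2 with both, so that the 4 groups did not overlap. The log2 difference of *Jak3* with H3.1K27M was 1.23 beside ACVR1 WT and 1.15 beside ACVR1 R206H. Where H3.1K27M was present, 3 of the 7 were higher with R206H and 0 lower, where 11.4% of all genes were higher, with *Jak3* up by 0.44 (adjusted p = 0.000402) and *Stat6* by 0.51 (adjusted p = 0.0170). Without ACVR1 WT plus H3.1K27M replicate 2, without replicate 3 of both mutations, or in the fit over all 12 samples, *Jak3* was the 1 call left.

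Of 15 inhibitors of the pathway, all tested, R206H against WT gave 0 calls in edgeR and in DESeq2 in either background. Of all genes 0% and 0.173% were called by edgeR and DESeq2 without H3.1K27M, and 20.3% and 16.1% with it. In edgeR there was an unadjusted p under 0.05 for 1 (*Ptpn6*) without H3.1K27M, where 3.54% of all genes had one, and for 2 (*Cish* and *Socs1*) with it, where 32.7% had one. Leaving out 1 sample gave calls in 3 cases: *Ptpn6* and *Socs7* as lower without ACVR1 WT replicate 1, *Socs1* as higher without ACVR1 WT plus H3.1K27M replicate 1, and *Cish* as higher without replicate 2 of both mutations. With H3.1K27M, 1 was higher and 5 were lower beside ACVR1 WT, and 4 were higher and 6 lower beside ACVR1 R206H. Over all genes 12.6% were higher and 10.4% lower in the first comparison and 29.1% and 27.4% in the second, so that the 10 of 15 in the second is near the background. *Socs2*, a suppressor best known for growth hormone signals, went from 34.4, 49.6 and 43.3 to 28.3, 26.1 and 25.1 CPM beside ACVR1 WT (log2 -0.67, adjusted p = 0.0214) and fell by 0.73 beside ACVR1 R206H. *Socs6*, a suppressor of receptor tyrosine kinases, fell by 0.57 and 0.61, and *Pias1*, a SUMO ligase that restrains STAT proteins, by 0.47 and 0.45 in these comparisons. *Ptpn6*, the phosphatase SHP-1, fell by 1.56 beside ACVR1 WT, and *Pias3*, which binds STAT3, rose by 0.36 beside ACVR1 R206H. Leaving out any sample with ACVR1 WT and H3.1K27M, or ACVR1 WT replicate 2, left *Pias1* and *Socs6* as the calls beside ACVR1 WT.

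Of 18 reported STAT3 targets, 17 were tested, and with H3.1K27M present 10 were higher and 3 lower with R206H, where 11.4% and 8.95% of all genes were, with a median log2 difference of 0.43 over the 17 and 0.00 over all genes. *Junb*, an AP-1 subunit, went from 10.96, 10.04 and 8.91 to 25.6, 22.7 and 19.5 CPM (log2 1.18, standard error 0.11). *Pim3*, a kinase, rose by 0.81, *Serpina3n*, a protease inhibitor of reactive astrocytes, by 0.66, and *Gfap*, the astrocyte filament, by 0.75, from 264.1 to 279.6 CPM up to 421.6 to 475.5 CPM. The adjusted p of these 4 was at most 2.86e-05 by edgeR's test. The 3 that fell were *Myc* (-0.49), *Birc5* (-0.28) and *Ccnd1* (-0.27), a growth regulator, a survival protein of dividing cells and a cyclin, which were named after their values were seen. The 13 calls were the same under every alternative except the fit over all 12 samples, which called 4 as higher and 1 as lower. *Gfap* is an astrocyte marker as well, and the astrocyte marker sum was 4118 to 4398 CPM with ACVR1 WT plus H3.1K27M and 5116 to 5209 CPM with both mutations. The markers of that sum did not move together: *Aqp4* went from 721.1 to 771.5 up to 1329 to 1357 CPM and *Slc1a3* from 1648 to 1763 up to 1930 to 1963 CPM, whereas *S100b* (135.8 to 142.3 against 109.8 to 119.8 CPM) and *Aldh1l1* (639.4 to 648.5 against 610.0 to 630.5 CPM) were lower without overlap and *Slc1a2* overlapped. In bulk samples fewer cells of a type and less RNA per cell cannot be told apart, and the part of this sum in the result was not tested.

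Without H3.1K27M none of the 17 targets passed edgeR's test or DESeq2's, and 3 (*Bcl2l1*, *Bcl3* and *Junb*) had an unadjusted p under 0.05 in edgeR, where 0% and 0.173% of all genes passed and 3.54% had such a p. The median log2 difference was 0.15. *Gfap* was spread widely over the ACVR1 WT samples, like the astrocyte marker sum it is part of, and was 345.9, 1419 and 2674 CPM in replicates 1, 2 and 3 with ACVR1 WT and 856.9, 1132 and 1102 CPM with ACVR1 R206H. Without ACVR1 WT replicate 1, 5 targets were called as higher and 2 as lower with R206H, where 23.1% of all genes were called. With H3.1K27M, 2 targets were higher and 2 lower beside ACVR1 WT (*Mcl1* and *Bcl2l1*, which oppose cell death, and *Bcl6*, a transcriptional repressor, and *Gfap*), none of which was called when any sample with ACVR1 WT and H3.1K27M, or ACVR1 WT replicate 2, was left out. Without ACVR1 WT replicate 1, 5 were called higher and 5 lower, where 52.6% of all genes were called, and with the replicate number as a block *Mcl1* alone was called. Beside ACVR1 R206H 7 were higher and 3 lower, among them *Ccnd1* (log2 1.25), *Pim3* (1.04) and *Bcl2l1* (0.67) as higher and *Gfap* (-1.17) as lower. Over all genes 23.0% were called beside ACVR1 WT and 56.5% beside ACVR1 R206H, so that the 4 and the 10 of 17 are at the background. In the fit over all 12 samples the calls beside ACVR1 R206H were 4 higher and 1 lower, without *Ccnd1* and *Gfap*. That fit called 38.6% of all genes. The interaction was called for 0 of the 17 in edgeR (4 at an unadjusted p under 0.05) and for 1 in DESeq2, and for 0.0712% (7.66% at such a p) and 0.622% of all genes. Without ACVR1 WT replicate 1 it was called for 10 of the 17 in edgeR, 7 upwards and 3 downwards, and for 26.6% of all genes.

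**Figure D4:**
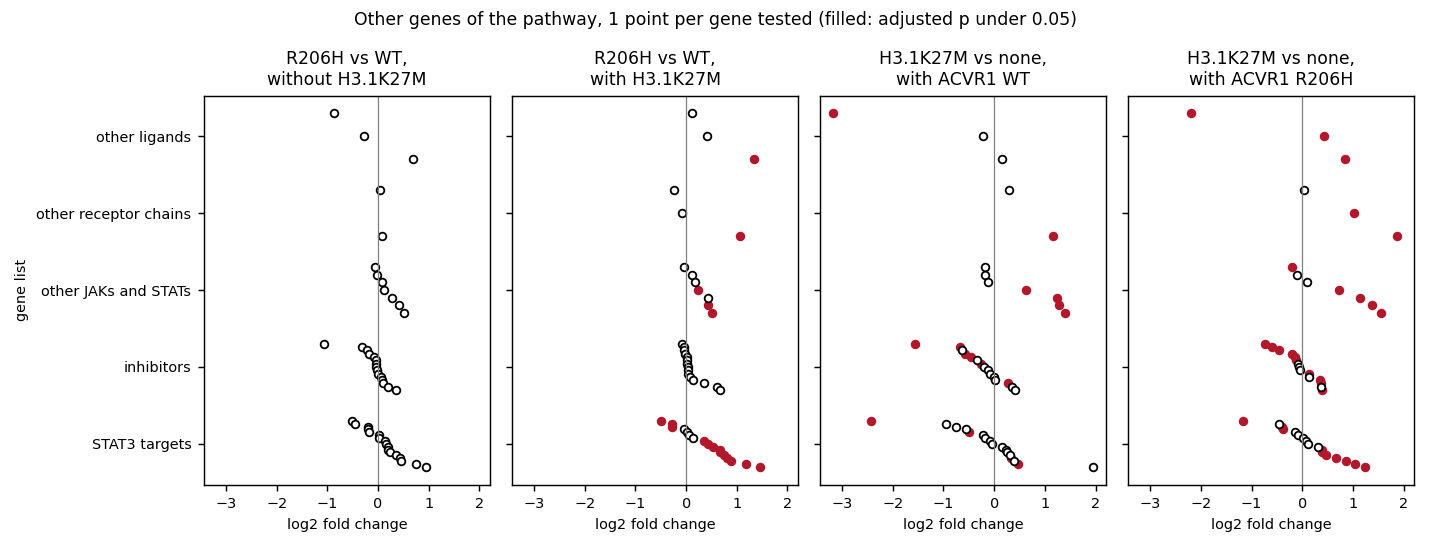
Log2 fold change of each tested gene of the 5 pathway lists in the 4 comparisons, 1 point per gene ordered within its list, filled where edgeR's adjusted p was under 0.05. With H3.1K27M, 10 of 17 STAT3 targets are filled to the right and 3 to the left for R206H against WT, and no point is filled in the comparison without H3.1K27M.

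The genes most like *Socs3*, *Il6st* and *Lif* across the 12 samples were found by Pearson's correlation of log2 CPM among the 15445 genes tested over all samples. The points share libraries and 4 group means, so that the values only describe likeness. For *Socs3* they were *Tes* (0.93), *Sez6* (0.93), *Grm4* (0.93), *Neat1* (0.92) and *Ccdc92* (0.92). For *Il6st* they were *Man1c1* (0.97), *Tnks1bp1* (0.96), *Fgf2* (0.96), *Rb1* (0.95) and *Casp12* (0.95). For *Lif* they were *Cercam* (0.996), *B2m* (0.993), *Erlec1* (0.992), *Ifit1* (0.991) and *H2-D1* (0.989). *B2m* and *H2-D1* encode MHC class I chains and *Ifit1* is an interferon-induced gene. *B2m* ran from 164.2 to 457.7 CPM and *H2-D1* from 28.7 to 203.7 CPM over the 12 samples.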

How the data were processed

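Read pairs were aligned by the authors in Galaxy with STAR 2.6.0b-1 (genome build mm10), and they deposited HTSeq counts per Ensembl gene for each of the 12 samples, without normalization or pooling, using union mode, no strand and uniquely placed reads. Groups and replicate numbers came from the labels. The raw counts were tested with edgeR 4.0.16 (R 4.3.3), by the quasi-likelihood F test with TMM scaling on the 6 samples of each comparison and on all 12 for the interaction. Genes needed a mean count of at least 10 after median-of-ratios scaling, and p-values were adjusted over all genes tested by Benjamini-Hochberg with a threshold of 0.05. DESeq2 1.42.0 was the alternative tool. Exon lengths and positions came from GENCODE M21, which held 54495 of the 54532 genes, and start windows from RefSeq (GRCm38.p6). The SE is the log2 fold change divided by the square root of F. CPM and RPKM were computed from the counts with TMM factors over the 12 samples. With 3 samples against 3, an exact two-sided test of a single gene cannot go below p = 0.1.

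The 10 genes and the pathway and marker lists were chosen with earlier results of these data known. Of each pathway list the text names up to 4 genes per comparison, those with the smallest adjusted p among genes past the threshold whose groups did not overlap, except that 2 genes of these lists are not reported here. In simulated counts with 200 changed genes, edgeR called 52% of them at the spread of R206H against WT without H3.1K27M and 89.5% at the spread with it. At the first of these spreads DESeq2 called 70.5%, with 62 unchanged genes called among 14896 genes against 13 in edgeR. The simulated log2 changes were all larger in size than the R206H differences of the 10 genes, except that of *Socs3* without H3.1K27M (0.78). So these shares do not hold for changes as small as those of the other genes. The alternatives were DESeq2, its size factors in edgeR, other filters on low counts, the replicate number as a block, 1 fit over all 12 samples, and leaving out each sample. The calls of the pathway lists under these were added after seeing the data.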

Additional observations from a re-analysis of the deposited data

How the results depend on the processing

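The calls for *Lif* and *Jak2* with H3.1K27M, and for *Cntfr* and *Socs3* with H3.1K27M beside ACVR1 R206H and *Socs3* with R206H where H3.1K27M was present, held under every alternative run. Of the 585 log2 fold changes of single genes under alternatives, 517 kept their direction and their side of the threshold, 25 lost a call, 19 gained one and 24 changed sign, all of these from a value that was not called. DESeq2 called 1 of the 9 genes and 26 genes in all for R206H against WT without H3.1K27M, 5 of the 9 for H3.1K27M beside ACVR1 WT, and 96 genes for the interaction. The fit over all 12 samples called 11 genes for R206H without H3.1K27M, 1 of the 9 and 440 genes for R206H with it, and 5 of the 9 and 6335 genes for H3.1K27M beside ACVR1 WT. With no filter on low counts the interaction was called for 18 genes. The cause of these differences was not tested. Depth limited *Il6* alone of the 10 genes, which had too few reads to be tested.

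Leaving out 1 sample at a time gave 0 to 4 of the 9 and 0 to 3485 genes for R206H without H3.1K27M, 3 to 5 of the 9 and 1915 to 2966 genes with it, 2 to 7 of the 9 and 1037 to 8115 genes for H3.1K27M beside ACVR1 WT, 5 to 6 of the 9 beside ACVR1 R206H, and 0 to 2 of the 9 and 3 to 4112 genes for the interaction. The counts of 3485, 8115 and 4112 genes came without ACVR1 WT replicate 1.

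Signs turned for values near 0. With no filter, H3.1K27M beside ACVR1 R206H gave -0.018 for *Il6st* and -0.032 for *Jak1*, and the interaction of *Jak2* was -0.015. The fit over all 12 samples gave -0.0062 for *Jak1* beside ACVR1 R206H. With 1 sample left out, R206H without H3.1K27M ran from -0.087 to 0.40 for *Lif*, from -0.088 to 0.21 for *Il6st* and from -0.14 to 0.039 for *Jak1*. H3.1K27M beside ACVR1 WT ran from -0.060 to 0.12 for *Jak1* and from -0.16 to 0.049 for *Stat3*, and beside ACVR1 R206H from -0.0013 to 0.045 for *Il6st* and from -0.018 to 0.014 for *Jak1*. The interaction ran from -0.19 to 0.30 for *Lif*, -0.16 to 0.078 for *Lifr*, -0.12 to 0.070 for *Jak1*, -0.026 to 0.096 for *Jak2* and -0.17 to 0.035 for *Stat3*.

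A pairing of the samples by replicate number was neither shown nor excluded. Deviations of same-numbered samples correlated at -0.11 to 0.33 over genes, not above 0.1 in every pair of any comparison. The highest, 0.25 and 0.33, were replicates 1 and 2 of R206H against WT without H3.1K27M, where replicate 3 gave -0.11. With 3 samples in each group such values cannot exclude a pairing. With the replicate block the calls among the 9 were the same genes in each comparison, and 2023 genes were called for H3.1K27M beside ACVR1 WT and 2 for the interaction.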
